A study of Mus musculus with 68 samples.

Results

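The measurement described here is the part of the Hoxa2-/- label difference that pharyngeal arch 2 (PA2) does not share with pharyngeal arch 1 (PA1) in mouse embryos at E9.0. It rests on 17 of the 68 libraries of a study that profiled both arches at 4 stages. They were all libraries labelled E9.0, in 4 groups. Wildtype PA1 had 5 libraries, wildtype PA2 had 4, PA1 labelled Hoxa2-/- had 4 and PA2 labelled Hoxa2-/- had 4. All came from the CBA/Ca/J x C57BL/10 strain, carried no other stated allele or treatment, and were dissected by hand. The labels call the mutant genotype Hoxa2-/- and do not describe the allele. PA1 and PA2 came from the same embryo, and both arches were sequenced for 8 embryos, 4 of each label, of 33 such embryos in the series. Wildtype PA1 replicate 3 had no PA2 partner and entered only the comparisons within an arch. For each gene the label difference in PA1 was subtracted from that in PA2, on the scale log2(CPM + 1), where CPM is the deposited read count scaled to library depth. A positive value of this difference of differences means that PA2 minus PA1 was higher in the labelled embryos than in wildtype.

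Each pharyngeal arch of the embryonic throat is filled with neural crest mesenchyme around a mesoderm core, with ectoderm outside and endoderm inside. PA1 forms the jaws and the malleus and incus of the middle ear, and PA2 forms the stapes and much of the hyoid apparatus. Hoxa2 encodes a homeodomain transcription factor that is active in PA2 and in the hindbrain but not in the PA1 mesenchyme. In its absence PA2 mesenchyme forms a mirror-image set of PA1 skeletal elements, so Hoxa2 is known as the selector gene of the second arch. Hox proteins bind DNA with cofactors of the TALE class, the Meis, Pbx and Pknox proteins.

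Recovered reads per library ran from 10421916 to 20619153, and every wildtype PA2 library was deeper than every PA2 library labelled Hoxa2-/-. At these depths 3 reads corresponded to 0.147 to 0.299 CPM, and such floors cover counting error only. The median standard error of the difference of differences was 0.20, and its 95% interval reached a median of 0.44 to either side from the spread among embryos, with 0.27 and 0.79 at the 5th and 95th percentiles of genes. Some PA2 libraries stood apart in markers of other tissues. Wildtype PA2 replicate 2 held 74780 summed CPM of 10 red blood cell genes against 3977 to 5800 in the other wildtype PA2 libraries, and 64.9 summed CPM of 9 cardiac muscle genes against 1217 to 1336. PA2 labelled Hoxa2-/- replicate 3 held 442 summed CPM of 8 yolk sac endoderm genes against 5.18 to 18.7, and 123.6 of the cardiac genes against 638.3 to 1138.

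The targeted gene went against its label. Hoxa2 (ENSMUSG00000014704, chromosome 6 from 52162417 to 52164831, minus strand, GRCm38) was at 22.9, 23.0, 20.2 and 23.1 CPM in wildtype PA2. In PA2 labelled Hoxa2-/- it was at 16.8, 32.0, 36.3 and 29.6 CPM. The labelled group thus held both the lowest and the highest library, and its mean was above that of wildtype. In PA1 the gene was at 0.0542 to 0.209 CPM in wildtype libraries and at 0 to 0.398 in the labelled ones, and only wildtype replicate 1 and labelled replicate 3 were above 3 reads. The difference of differences was 0.30 (SE 0.22, unadjusted p = 0.189), with 0.19 without labelled embryo 2 and 0.48 without labelled embryo 1. Because the allele is not described, reads counted over the whole gene do not check the label, and the group is called labelled Hoxa2-/- throughout.

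No gene passed the adjusted threshold for the difference of differences (0 of 17214 genes tested with limma, 0%). The lowest adjusted p was 0.964, and 699 genes had an unadjusted p below 0.05. That is 4.06% of the genes tested, below the 5% that this threshold admits when no gene differs. With edgeR's quasi-likelihood test on recovered reads the count was likewise 0 at the adjusted threshold, with 695 at unadjusted p below 0.05. The 699 genes were 420 with a positive difference (2.44%) and 279 with a negative one (1.62%). Embryos of the labels did not overlap for 327 genes in the positive direction (1.9%) and 174 in the negative one (1.01%). The values of single genes and groups that follow are therefore descriptions, and none of them passed the test across genes. In bulk tissue, fewer cells of a type and less RNA per cell cannot be told apart.

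**Figure D1:**
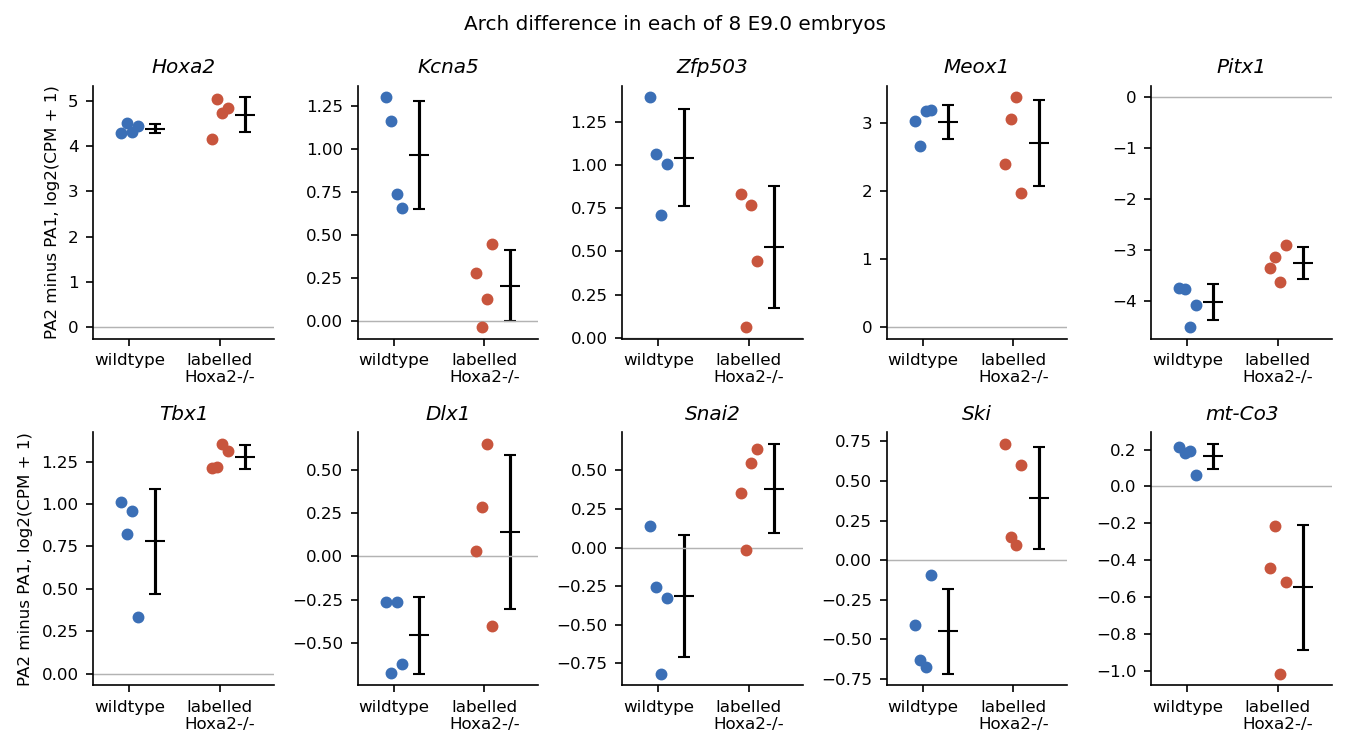
PA2 minus PA1 in log2(CPM + 1) for 10 genes in each of the 8 E9.0 embryos with both arches; points are embryos (blue wildtype, red labelled Hoxa2-/-), and bars beside them give the mean and SD. Kcna5, Pitx1, Tbx1, Ski and mt-Co3 separate the labels, while the labels overlap for Hoxa2, Zfp503, Meox1, Dlx1 and Snai2.

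The anterior Hox genes, Hoxa2 included, had small positive values. Of 13 Hox genes and antisense transcripts listed, 7 passed the filter on low values, all 7 had a positive difference of differences, and none had an unadjusted p below 0.05. Their values ran from 0.20 to 0.56 with a median of 0.30, beside a median of -0.01 over all genes tested. Hoxb1, the rhombomere 4 Hox gene, was highest at 0.56 (SE 0.37), and Hoxb2 was lowest at 0.20 (SE 0.18). Hoxaas2, the antisense transcript next to Hoxa2 on the plus strand (chromosome 6 from 52165674 to 52169564), was at 3.09 to 6.52 CPM in wildtype PA2 and 4.86 to 6.98 CPM in labelled PA2. Its difference of differences was 0.34 (SE 0.23). In this annotation the genes of Hoxa2 and Hoxaas2 do not overlap, but the strand setting of the counting is not known. The 3 listed genes Hoxb3, Hoxb4 and Hoxaas3 did not pass the filter, and Hoxa4, Hoxd3 and Hoxd4 were not analysed here.

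Kcna5 had the lowest unadjusted p among the listed genes whose label effect was reported to differ between the arches at later stages. It encodes a voltage-gated potassium channel of the Kv1 family and lies on chromosome 6 from 126532551 to 126535412, minus strand. Wildtype PA2 held 10.45, 11.65, 7.23 and 6.55 CPM, and labelled PA2 held 5.11, 4.44, 3.79 and 4.06 CPM. Each wildtype PA2 library was thus above each labelled one. PA1 libraries ran from 3.66 to 4.66 CPM in wildtype and from 2.71 to 4.57 CPM in labelled embryos, and overlapped. PA2 minus PA1 was 0.96 ± 0.31 (SD, n = 4) in wildtype and 0.20 ± 0.21 (SD, n = 4) in labelled embryos. The difference of differences was -0.76 (SE 0.21, 95% interval -1.22 to -0.30), with an unadjusted p of 0.00394 and an adjusted p of 0.964. Within PA2 alone, where the fit pooled its spread over the 4 groups, Kcna5 fell by 0.87 with an adjusted p of 0.00795. Within PA1 its label effect was -0.10 (adjusted p = 0.885). Leaving out any 1 embryo moved the difference of differences between -0.86 and -0.65, and leaving out any 1 PA2 library kept the PA2 effect past the threshold, with adjusted p from 0.00625 to 0.0256.

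The list held 9 genes whose label effect was reported to differ between the arches at later stages. Of these, 5 passed the filter at E9.0, and Kcna5 alone of them had an unadjusted p below 0.05, beside 4.06% of all genes. The list was chosen on other stages of this study, so it is not independent of the series. Meis2, a TALE cofactor, had a difference of differences of -0.01 (SE 0.12), Chst8, a sulfotransferase gene, 0.02 (SE 0.23), and Tle4, a Groucho-type corepressor gene, 0.01 (SE 0.20). Sytl4, which encodes a Rab27 effector, had -0.04 (SE 0.32). The 95% interval of Meis2 (-0.28 to 0.25) does not reach the value of Kcna5. Kcna1, Tcf24, 3110099E03Rik and 8430419K02Rik were below the filter.

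Genes that earlier work placed downstream of Hoxa2 split in both directions. Of 15 listed, 13 passed the filter, and the median was -0.13, or 0.05 without labelled embryo 3. At unadjusted p below 0.05, 2 had a positive and 1 a negative value, beside 2.44% and 1.62% of all genes. With no embryo block none did. Pitx1, a homeobox gene of the lower jaw and hindlimb (chromosome 13 from 55825051 to 55836192), was far higher in PA1 than in PA2. It was at 2.11, 0.641, 1.10 and 0.866 CPM in wildtype PA2 and at 2.13, 3.04, 0.757 and 3.51 CPM in labelled PA2. PA1 libraries held 21.36 to 46.79 CPM of it in wildtype and 20.71 to 34.56 CPM in labelled libraries. The PA2 libraries of the labels overlapped, and in PA2 labelled replicate 3 was lower than all but 1 wildtype library. PA2 minus PA1 per embryo did not overlap, with -4.51 to -3.74 in wildtype and -3.63 to -2.90 in labelled embryos. This gave a difference of differences of 0.77 (SE 0.23, unadjusted p = 0.00659, adjusted p = 0.964).

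Zfp503, a zinc-finger repressor gene (chromosome 14 from 21983959 to 21989601), had PA2 values of 12.05, 9.03, 8.55 and 8.98 CPM in wildtype. In labelled PA2 it was at 4.18, 5.50, 4.26 and 6.46 CPM, below every wildtype library. In PA1 the gene was at 3.28 to 4.83 CPM in wildtype and 1.91 to 5.23 CPM in labelled libraries. Within PA2 it fell by 0.81 (adjusted p = 0.0366), and the difference of differences was -0.52 (SE 0.23, unadjusted p = 0.0446), with embryos that overlapped. Its relative Zfp703 also fell within PA2, by 0.63 (adjusted p = 0.0414), with a label effect of -0.34 in PA1 and a difference of differences of -0.25 (SE 0.18).

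Meox1, a homeobox gene of somites and arch mesenchyme, was the third gene of the list that fell within PA2, by 0.81 (adjusted p = 0.0421). It was at 26.98, 24.21, 26.92 and 23.97 CPM in wildtype PA2 and at 11.08, 16.18, 24.98 and 8.68 CPM in labelled PA2, where replicate 3 lay among the wildtype libraries. PA1 levels were 1.72 to 3.23 CPM in wildtype and 1.06 to 1.49 CPM in labelled libraries, so the labels did not overlap in that arch. The PA1 effect was -0.57, and the difference of differences was -0.32 (SE 0.29, unadjusted p = 0.304). Without labelled embryo 3 it was -0.54, and without labelled embryo 4 it was -0.08. No gene of the list was called higher within PA2, beside 469 of all genes (2.72%), and 3 of 13 were called lower, beside 543 of all genes (3.15%). Six2 had 0.34 (SE 0.32), Wnt5a -0.13 (SE 0.23), Htra1 -0.36 (SE 0.37), Fzd4 -0.46 (SE 0.36), Eya1 -0.07 (SE 0.20) and Bmp5 0.12 (SE 0.22).

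**Figure D2:**
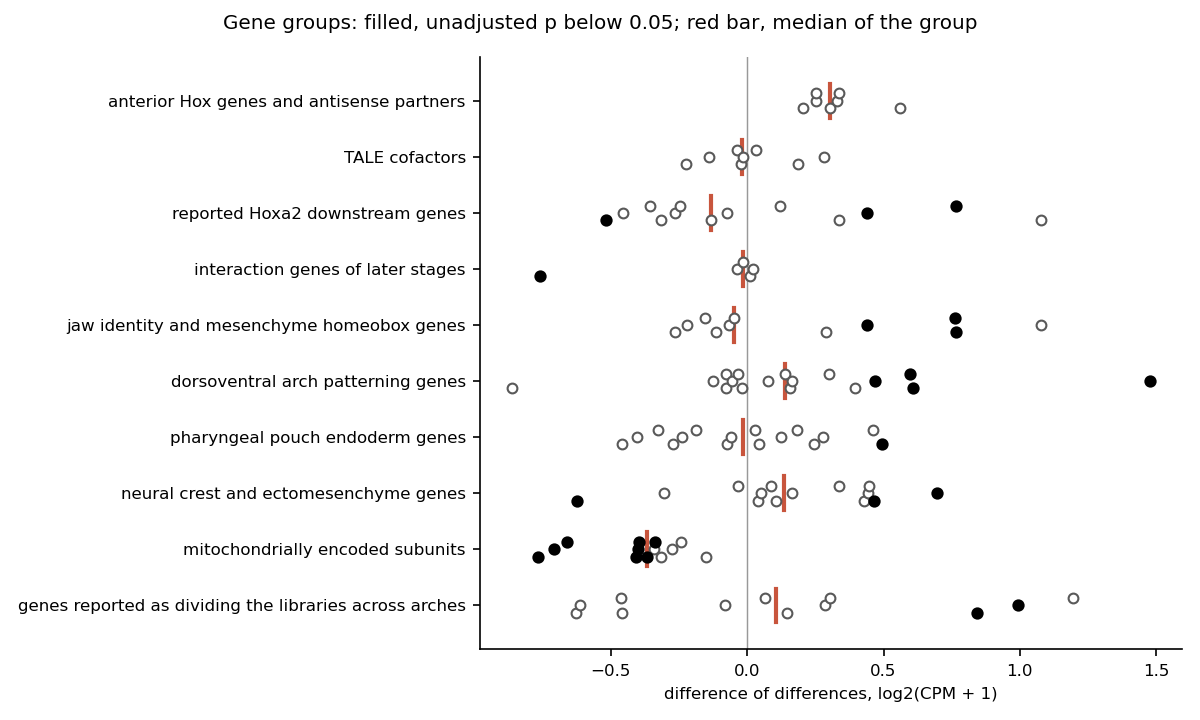
Difference of differences in log2(CPM + 1) for each gene of 10 groups; open circles had an unadjusted p of 0.05 or more, filled circles less, and red bars are group medians. The 13 mitochondrial genes all lie below 0 and the 7 anterior Hox genes all above, while the other groups lie on both sides.

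Among the homeobox genes of jaw identity and arch mesenchyme, 11 of 12 passed the filter. At unadjusted p below 0.05, 3 had a positive value, among them Pitx1 and Lhx6 (0.44), beside 2.44% of all genes. Lhx6, a LIM homeobox gene of oral mesenchyme, was at 1.03 to 1.87 CPM in wildtype PA2 and 1.73 to 2.58 CPM in labelled PA2. It was low at this stage and overlapped between labels in PA2. Barx1, a homeobox gene of PA1 molar and mandibular mesenchyme, had the largest value of the group at 1.08 with an SE of 0.66 (unadjusted p = 0.131). Prrx2 had 0.29 (SE 0.13), Prrx1 -0.15 (SE 0.23) and Otx2 -0.05 (SE 0.25), and the median of the group was -0.05, or 0.18 without labelled embryo 3. The count of 3 was 1 without labelled embryo 3 or wildtype embryo 4, and 1 with no embryo block.

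The genes that pattern the arches from top to bottom include the endothelin signal and the Dlx and Hand factors. All 17 passed the filter. At unadjusted p below 0.05 none had a negative value and 4 had a positive one, beside 2.44% of all genes. These were Dlx1 (0.60, SE 0.22), Dlx2 (0.47, SE 0.20), Dlx3 (0.61, SE 0.26) and Hand1 (1.48, SE 0.61). Dlx1 was at 31.1, 27.9, 24.6 and 19.0 CPM in wildtype PA2 and at 28.4, 40.8, 49.3 and 26.7 CPM in labelled PA2, and in PA1 the groups overlapped at 29.8 to 45.1 and 27.8 to 35.6 CPM. Embryos of the labels overlapped for each of these 4 genes. Hand1 varied most among embryos, with PA2 minus PA1 from -1.27 to 0.87 in wildtype and from -0.25 to 2.64 in labelled embryos. Wildtype PA1 replicate 4 held 53.4 CPM of it against 4.77 to 15.8 CPM in the other wildtype PA1 libraries. Labelled PA2 replicate 4 held 54.55 CPM against 9.275 to 18.48 CPM in the other labelled PA2 libraries. Dlx5 and Dlx6, the ventral Dlx pair, had 0.14 (SE 0.35) and -0.03 (SE 0.40). Edn1, the endothelin ligand gene, had -0.08 (SE 0.19), and its receptor gene Ednra -0.12 (SE 0.19). Hand2 had 0.16 (SE 0.34). Jag1, a Notch ligand gene of the dorsal arch, had -0.86 (SE 0.42, unadjusted p = 0.0622), and its PA2 libraries of the label ran from 21.3 CPM in replicate 3 to 100.6 CPM in replicate 1. The count of 4 positive genes was 1 without wildtype embryo 4, 1 without wildtype embryo 5, and 2 without wildtype embryo 1 or labelled embryo 1. Without both wildtype embryo 2 and labelled embryo 3 it was 6, with 1 negative, while over all genes the count at unadjusted p below 0.05 was 1454 in place of 699. With no embryo block it was 1.

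Among 16 genes of the pharyngeal pouches and their signals, Tbx1 alone had an unadjusted p below 0.05, beside 4.06% of all genes. With no embryo block none of the 16 did. Tbx1 is a T-box factor of pouch endoderm and of the arch mesoderm core (chromosome 16 from 18580979 to 18590671). It was at 55.2, 56.7, 39.1 and 42.9 CPM in wildtype PA2 and at 77.4, 62.2, 84.3 and 50.5 CPM in labelled PA2. PA1 levels were 19.7 to 33.8 CPM in wildtype and 19.7 to 32.8 CPM in labelled libraries. PA2 minus PA1 ran from 0.33 to 1.01 in wildtype and from 1.22 to 1.36 in labelled embryos, which did not overlap. This gave a difference of differences of 0.50 (SE 0.16, unadjusted p = 0.0115), and the PA2 effect alone was 0.48 (adjusted p = 0.158). Other pouch genes lay on both sides of 0, such as Fgf8 at 0.13 (SE 0.24), Pax1 at -0.19 (SE 0.29), Pax9 at -0.24 (SE 0.24), Nkx2-6 at -0.41 (SE 0.21) and Hhex at 0.46 (SE 0.44). The median of the 16 was -0.01.

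Of 15 neural crest and ectomesenchyme genes, 14 passed the filter, and the median was 0.14. At unadjusted p below 0.05, 2 were positive and 1 negative, beside 2.44% and 1.62% of all genes. With no embryo block 1 was positive and none negative. Snai2, a zinc-finger repressor of migrating crest, was at 38.4, 27.8, 31.2 and 30.7 CPM in wildtype PA2 and at 46.8, 34.8, 40.9 and 76.6 CPM in labelled PA2. In PA1 it was at 33.34 to 55.76 CPM in wildtype, with replicate 4 highest. Labelled PA1 libraries held 27.68 to 48.76 CPM. The difference of differences of Snai2 was 0.70 (SE 0.21, unadjusted p = 0.00753). Embryos of the labels overlapped for it, as for all 14 genes. Sox9, the cartilage-lineage factor, had 0.46 (SE 0.18, unadjusted p = 0.0265). Foxd1, a forkhead gene, had -0.63 (SE 0.26) at levels of 0.276 to 3.14 CPM in wildtype PA2 and 0.0923 to 0.597 CPM in labelled PA2. Twist1, Sox10, Pdgfra and Foxc1, which mark crest mesenchyme or glial crest, had 0.09 (SE 0.29), 0.11 (SE 0.28), 0.04 (SE 0.29) and 0.05 (SE 0.14).

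The TALE cofactors showed no member at unadjusted p below 0.05. All 8 passed the filter, and their values ran from -0.22 to 0.28 with a median of -0.02. Meis1 was at 162.1, 109.2, 146.1 and 140.0 CPM in wildtype PA2 and at 117.9, 98.3, 92.6 and 106.3 CPM in labelled PA2, where 1 wildtype library lay within the labelled range. Its difference of differences was -0.22 (SE 0.18). Pknox2 had the highest value at 0.28 (SE 0.14, unadjusted p = 0.06).

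The 13 protein-coding genes of the mitochondrial genome, which encode subunits of the respiratory chain and ATP synthase, all had a negative difference of differences. Values ran from -0.77 for mt-Nd3 to -0.15 for mt-Atp8, with a median of -0.37 beside -0.01 over all genes. At unadjusted p below 0.05 there were 8 of 13, beside 1.62% of all genes in the negative direction. Embryos of the labels did not overlap for 5, beside 1.01% of all genes in that direction. The 13 genes were measured in the same 8 embryos, so these counts are not independent observations. The lowest p was that of mt-Co3, a cytochrome c oxidase subunit (mitochondrial chromosome from 8607 to 9390). It was at 631.3, 878.7, 742.0 and 648.9 CPM in wildtype PA2 and at 366.3, 491.8, 264.7 and 340.3 CPM in labelled PA2. The PA1 range was 544.7 to 774.7 CPM in wildtype and 488.7 to 569.8 CPM in labelled libraries. PA2 exceeded PA1 in all 4 wildtype embryos (0.06 to 0.21) and was below PA1 in all 4 labelled embryos (-1.02 to -0.21). The difference of differences was -0.71 (SE 0.16), with an unadjusted p of 0.000805 and an adjusted p of 0.964.

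mt-Co2, another oxidase subunit, gave -0.66 (SE 0.16), mt-Nd4 -0.40 (SE 0.10) and mt-Nd1 -0.40 (SE 0.11), the last 2 being subunits of complex I. Within PA2 all 13 genes fell past the adjusted threshold, beside 3.15% of all genes, and they did so with any 1 PA2 library left out. Within PA1, 6 of 13 fell past it, beside 0.378% of all genes. Summed over the 13 genes, wildtype PA2 libraries held 5493, 6672, 6227 and 5461 CPM, and labelled PA2 libraries held 3074, 3812, 2696 and 3643 CPM. Wildtype PA1 libraries held 4708 to 5899 CPM and labelled PA1 libraries 3460 to 4058 CPM. The label difference was thus present in both arches, with no overlap in either, and larger in PA2. PA2 minus PA1 of the log2 sum was 0.21 ± 0.03 (SD, n = 4) in wildtype and -0.19 ± 0.12 (SD, n = 4) in labelled embryos. The exact two-sided permutation p for this difference of -0.41 was 0.0286, the smallest that 4 against 4 embryos allow, and 0.286 after adjustment over 10 summed lists. Leaving out 1 embryo gave -0.44 to -0.35.

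Nuclear copies of mitochondrial sequence could share these reads. With all 33 embryos of the 4 stages in 1 paired fit, 3 genes passed the threshold at E9.0, each with an adjusted p of 0.027: mt-Co3, Gm13341 and Gm28661. Gm13341 (chromosome 2 from 22587291 to 22587962) and Gm28661 (chromosome 1 from 24614885 to 24615565) are annotated as unprocessed pseudogenes, had differences of -0.69 and -0.73, and were chosen for mention after their values were seen. Their values are uncertain where reads were split with mitochondrial genes. Recovered depth moved with the label in PA2 and in PA1 overlapped only between wildtype replicate 4 and labelled replicates 2 and 4, and its part in the mitochondrial values was not tested.

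**Figure D3:**
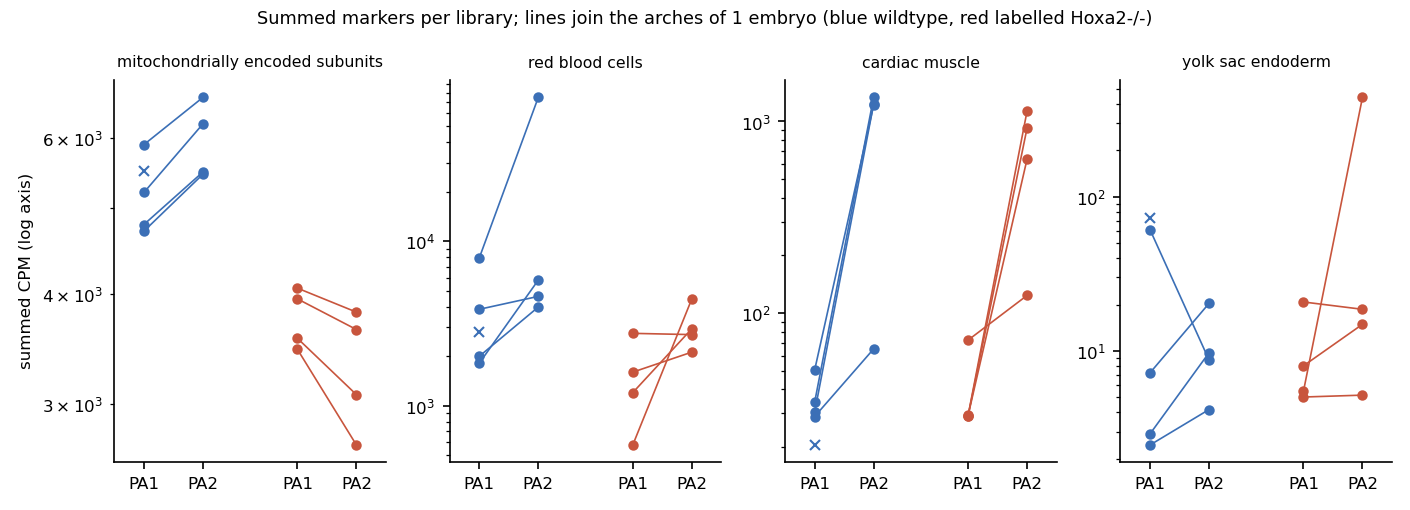
Summed CPM on a log axis of 4 marker lists in each E9.0 library, with lines joining PA1 and PA2 of 1 embryo (blue wildtype, red labelled Hoxa2-/-) and a cross for wildtype PA1 replicate 3, which had no PA2 partner. The mitochondrial sum is higher in PA2 than in PA1 in the 4 wildtype embryos and lower in the 4 labelled ones; wildtype PA2 replicate 2 stands high in red cell genes and labelled PA2 replicate 3 in yolk sac genes.

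The difference of differences subtracts what PA1 shares with PA2, and the size of that shared share can be read from the effects within each arch. Within PA2, 1012 genes passed the adjusted threshold, 469 higher (2.72%) and 543 lower (3.15%) in labelled libraries. Within PA1 there were 79, of which 14 were higher (0.0813%) and 65 lower (0.378%). Of the 1012 genes called in PA2, 991 had the same sign in PA1, beside 12275 of all 17214 genes tested, and 58 were called in both arches, all in the same direction. These genes were chosen on the PA2 effect and the arches come from the same embryos, so the counts are a description. Their median absolute effect was 0.55 in PA2 and 0.26 in PA1. For the difference of differences, 213 of them had an unadjusted p below 0.05, beside 699 of all 17214 genes (4.06%). The PA2 effect is part of that difference, so choosing genes on it raises this count by itself. The count in PA2 rested on single libraries, with 308 genes without wildtype replicate 4 and 2311 without labelled replicate 3. The count in PA1 fell to between 14 and 37 with any 1 library left out.

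**Figure D4:**
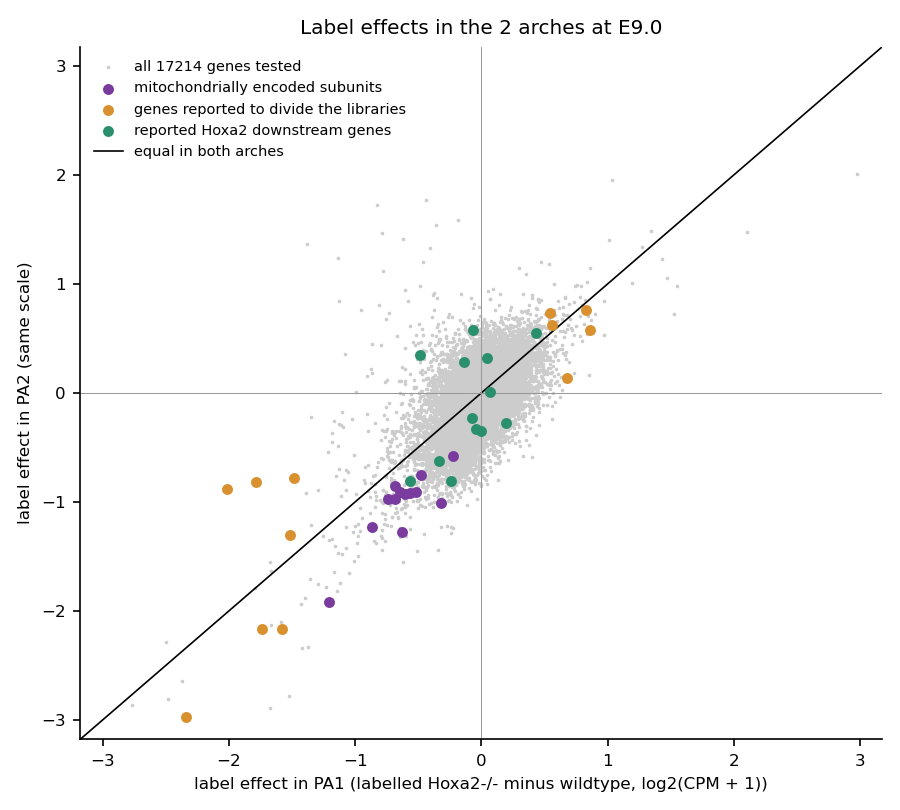
Label effect (labelled Hoxa2-/- minus wildtype, log2(CPM + 1)) in PA2 against that in PA1 for all 17214 genes tested, with 3 gene lists in colour and a line where both arches are equal. Mitochondrial genes lie below the line, with negative effects in both arches, and genes that divide the libraries in both arches lie on either side of it.

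Genes reported to divide labelled from wildtype libraries in both arches, a list chosen on these libraries, had differences of differences on both sides of 0. Of 12 such genes, Ski and Ranbp9 had a positive difference of differences at unadjusted p below 0.05, beside 2.44% of all genes. Embryos of the labels did not overlap for either, beside 1.9% of all genes in that direction. The group ran from -0.63 for Rn7s1 to 1.20 for Khdrbs3 with a median of 0.11. Ski encodes a repressor of TGF-beta signalling. It was at 28.1, 28.3, 27.5 and 51.1 CPM in wildtype PA2 and 22.8, 16.4, 15.7 and 19.9 CPM in labelled PA2. In wildtype PA1 it was at 27.2 to 54.5 CPM and in labelled PA1 at 12.7 to 14.8 CPM. The label effect was -0.78 in PA2 (adjusted p = 0.0316) and -1.49 in PA1 (adjusted p = 0.00104). Over the 8 paired embryos, which leave out wildtype PA1 replicate 3, the difference of differences was 0.84 (SE 0.20, unadjusted p = 0.00132). Ranbp9, a subunit of a ubiquitin ligase complex, was at 52.5 to 72.7 CPM in wildtype PA2 and at 55.0, 19.8, 48.1 and 25.3 CPM in labelled PA2. In labelled PA1 it was at 15.1 to 22.8 CPM against 62.3 to 74.1 CPM in wildtype PA1, and the difference of differences was 0.99 (SE 0.25).

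Khdrbs3, an RNA-binding protein gene, was uneven in labelled PA2, with 68.0, 13.5, 73.8 and 25.3 CPM, beside 43.9 to 95.03 CPM in wildtype PA2 and 8.40 to 22.4 CPM in labelled PA1. Replicates 1 and 3 of labelled PA2 thus lay in the wildtype range and replicates 2 and 4 below it. For Ranbp9 the same pair of labelled PA2 libraries was higher than the other pair. Irf2bp2, by contrast, had label effects of -1.30 in PA2 and -1.51 in PA1 and a difference of differences of 0.30 (SE 0.22). None of the 12 genes passed the adjusted threshold for the difference of differences, so unequal label effects in the arches were not established for any of them.

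By the rule for named genes, 136 genes were eligible in the positive and 38 in the negative direction, and the 12 largest of each were taken. Since the rule used the difference of differences, their values are a description. Fbln5, an elastic-fibre fibulin (chromosome 12 from 101746565 to 101819055), was largest at 1.37 (SE 0.31). It was at 1.91 to 2.70 CPM in wildtype PA2 and at 2.22, 3.86, 1.51 and 8.03 CPM in labelled PA2. In PA1 it was at 5.33 to 13.3 CPM in wildtype and at 1.22, 9.07, 2.39 and 8.96 CPM in labelled libraries, so the PA1 libraries of labelled embryos 1 and 3 were low. Fbln2, another fibulin, had 0.76 (SE 0.31), or 0.48 without labelled embryo 4 and 0.49 without wildtype embryo 4. Gpr50, an orphan relative of the melatonin receptors, had 0.95 (SE 0.22), with an effect of 0.01 in PA2 and -0.99 in PA1. Git1, an Arf GTPase regulator, had 0.91 (SE 0.22), with 0.10 in PA2 and -0.76 in PA1.

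Most of the positive value thus came from PA1 for Fbln5, Gpr50 and Git1, whereas for Plk2 it came from PA2. Plk2, a polo-like kinase gene, was at 90.8, 81.0, 77.8 and 87.6 CPM in wildtype PA2 and at 134.7, 103.3, 135.1 and 171.3 CPM in labelled PA2, with no overlap. In PA1 it was at 64.0 to 84.8 CPM and 64.4 to 91.2 CPM. It rose within PA2 by 0.66 (adjusted p = 0.0107), and its difference of differences was 0.71 (SE 0.17). Vnn1, a pantetheinase gene, had 1.01 (SE 0.33), Tmem108 0.81 (SE 0.29), Atp2c2, a secretory-pathway calcium pump gene, 0.78 (SE 0.29), and Cd55, a complement regulator gene, 0.77 (SE 0.26). For Vnn1, Tmem108 and Cd55 wildtype embryo 4 had the lowest PA2 minus PA1, at -0.91, -0.54 and -0.89. Without that embryo Vnn1 had 0.65 and Tmem108 0.51, and Atp2c2 had 0.52 without labelled embryo 1.

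In the negative direction Arl5c, an Arf-like GTPase gene, was largest at -1.12 (SE 0.46). It was at 9.89, 15.1, 15.5 and 3.97 CPM in labelled PA2 and 21.6 to 33.3 CPM in wildtype PA2, and without labelled embryo 4 the value was -0.54. Usp12, a deubiquitinase gene, had -0.96 (SE 0.30), with 22.2, 21.3, 7.10 and 11.8 CPM in labelled PA2 against 23.0 to 30.3 CPM in wildtype PA2. Rabgap1l, a Rab GTPase regulator, fell within PA2 by 0.62 (adjusted p = 0.0251) and had a difference of differences of -0.63 (SE 0.18). Dpm3, a dolichol-phosphate mannose synthase subunit gene, had -0.71 (SE 0.24), Ccdc7b -0.78 (SE 0.25) and Uhmk1, a kinase gene, -0.62 (SE 0.28), or -0.30 without labelled embryo 3. Rps25-ps1, with -0.66 (SE 0.27), or -0.35 without labelled embryo 4, is named as a pseudogene of a ribosomal protein gene, so its reads may belong to the parent gene.

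Tfrc, the transferrin receptor, and Dmtn, a red cell membrane protein gene, are abundant in red cell precursors. Tfrc was at 173.7, 321.7, 172.2 and 151.6 CPM in wildtype PA2, with replicate 2, the library rich in red cell transcripts, at the top. Labelled PA2 held 175.1, 148.8, 62.8 and 113.9 CPM, with replicate 3 at the bottom. The difference of differences was -0.71 (SE 0.27) for Tfrc and -0.78 (SE 0.25) for Dmtn. Without wildtype embryo 2 and labelled embryo 3 these values were -0.26 and -0.59. Over the 10 red cell markers none had an unadjusted p below 0.05 for the difference of differences. Within PA2 the globin genes Hbb-bs and Hbb-bt fell, by 2.87 and 2.81 (adjusted p = 0.0216 and 0.0234), and the median label effect of the 10 markers was -1.73 in PA2 and -1.24 in PA1. Their summed CPM was 576.6 to 4451 in labelled libraries of both arches and 1811 to 74780 in wildtype libraries.

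Markers of other tissues were compared as summed CPM per embryo, and the mitochondrial list apart, no exact permutation p was below 0.286. PA2 minus PA1 of the log2 sum was 1.54 ± 1.27 in wildtype and 1.15 ± 1.31 in labelled embryos for red cells (SD, n = 4 each). It was 4.07 ± 1.98 and 3.84 ± 2.08 for cardiac muscle, so heart transcripts were richer in PA2 dissections of both labels. With 1 embryo left out the label difference ran from -0.99 to 0.17 for red cells and from -1.20 to 0.80 for cardiac muscle, so both changed sign. For neurons it was -0.02 (-0.20 to 0.07 with 1 embryo left out), and for hindbrain -0.14 (-0.32 to -0.02). Endothelium had 0.25 (0.12 to 0.57, highest without labelled embryo 3), surface epithelium 0.22 (0.11 to 0.31) and the mesoderm core 0.27 (0.17 to 0.46). Without labelled embryo 3, 4 of 8 endothelial genes had a positive value at unadjusted p below 0.05, against 0 with it. Over all 17214 genes the same step raised that count from 420 to 860. For yolk sac endoderm the difference was 1.51, and 0.05 without labelled embryo 3. In the list of neuron genes Stmn2 had -0.60 (unadjusted p = 0.0113), and in that of the mesoderm core Tbx1 was the member at that level. All 7 macrophage genes were below the filter, with summed CPM of 0.0946 to 6.84. Egr2, the defining gene of rhombomeres 3 and 5, was below the filter as well.

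**Figure D5:**
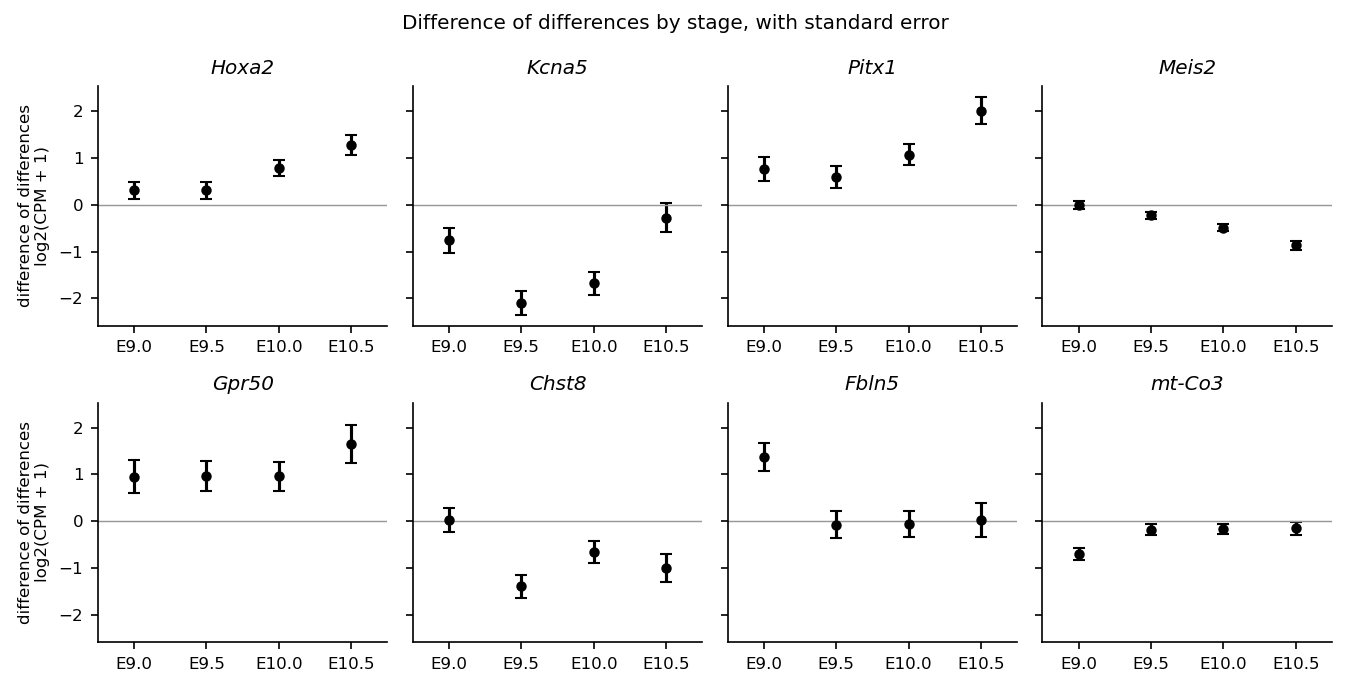
Difference of differences in log2(CPM + 1) at each of 4 stages for 8 genes, with standard errors from 1 paired fit of 33 embryos. Pitx1 and Gpr50 are positive at each stage, and Kcna5 is lowest at E9.5. Meis2 is near 0 at E9.0 and -0.87 at E10.5. Fbln5 and mt-Co3, genes named for their E9.0 values, have their largest absolute values at E9.0.

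Whether E9.0 differed from later stages was tested in the paired fit of 33 embryos, as E9.0 minus the mean of the later 3 stages (E9.5, E10.0, E10.5). No gene passed the adjusted threshold (0 of 17214 with limma), and 1241 had an unadjusted p below 0.05. Meis2 had the lowest adjusted p of 0.21. In stage order its difference of differences was -0.01, -0.23, -0.49 and -0.87, and E9.0 lay 0.52 above the later mean (SE 0.10, unadjusted p = 1.22e-05). With a variance weight per stage its adjusted p was 0.999. The median residual SD per embryo was 0.275 at E9.0 and 0.248, 0.194 and 0.178 at the later stages, so E9.0 embryos varied most.

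For Kcna5 the values in stage order were -0.76, -2.10, -1.68 and -0.28, and E9.0 minus the later mean was 0.60 (SE 0.31, adjusted p = 0.701). Chst8 was at 0.02 at E9.0 and at -1.39, -0.65 and -0.997 later, with E9.0 1.04 above the later mean (SE 0.30, adjusted p = 0.561). Pitx1 was at 0.77, 0.58, 1.07 and 2.01 in stage order, and the difference of E9.0 from the later mean was -0.45 (SE 0.29, adjusted p = 0.744). Hoxa2 itself was at 0.30, 0.31, 0.78 and 1.27. Fbln5 was at 1.37 at E9.0 and between -0.08 and 0.02 later, 1.40 above the later mean (SE 0.35, adjusted p = 0.561). mt-Co3 was at -0.71 at E9.0 and between -0.18 and -0.16 later (adjusted p = 0.561 for the difference). Gpr50 kept positive values of 0.95, 0.97, 0.96 and 1.65. Kcna5, Pitx1, Fbln5, mt-Co3 and Gpr50 met the rule for named genes, which used the E9.0 values. Their stage values are therefore a description, and smaller values later do not show an effect limited to E9.0.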

How the data were processed

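Polyadenylated RNA of pharyngeal arches was sequenced, and the authors deposited 1 table of CPM-like signal values with 21948 genes and 68 libraries. Per the submitters' processing notes, bcl2fastq 2.18, TopHat2 2.1.1, R 3.3.2 and the mm10 build were named. The counting program, annotation and strand setting are not given in the sources used here. The deposited signal was recorded as such because column totals ran from 926298 to 1051959. All values (100.0%) were whole multiples of 1 read within a tolerance of 0.01 reads, and the reads so recovered ran from 10421916 to 20619153 per E9.0 library. The planned tests assumed CPM and were run as written. Symbols were found for 21921 genes in GENCODE M21 (GRCm38, which is mm10).

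Genes with at least 1 CPM in at least 3 E9.0 libraries were kept (17214). For each embryo with both arches, the PA2 minus PA1 difference of log2(CPM + 1) was taken, and the labels were compared with limma 3.58.1 in R 4.3.3 (trended prior variance, two-sided, Benjamini-Hochberg over all kept genes, threshold 0.05). Adjusted and unadjusted p-values without another name come from limma. Label effects within an arch used 1 mean per group over 17 libraries. Pairing by number rests on the series text, which says both arches came from 1 embryo. Same-numbered arches deviated together with correlations of 0.0795 to 0.38, above 0.1 in 7 of 8 embryos, against a median of -0.0608 over 24 other pairs. Chi-square per degree of freedom between replicate libraries was 6.34 to 95.9 over 28 pairs, so none was a copy. The test was checked on simulated data.

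Named genes were up to 12 in each direction with the largest difference among those at unadjusted p below 0.05, at least 5 CPM in a group, embryos of the labels not overlapping, and a symbol other than a Gm number or one ending in Rik, plus the genes of the lists. Some listed genes are not reported here by name. Members and lists were chosen with earlier results of these data known. Alternatives varied the pseudocount (0.25, 5), the low-value filter (none, 5 CPM) and the scaling (median of ratios), and used edgeR 4.0.16 on the recovered reads, all stages in the fit, no embryo block, a GC correction, embryo or stage weights, and the data without each library or embryo in turn. Leaving out wildtype embryo 2 and labelled embryo 3 together was chosen after seeing the data. Figures used matplotlib 3.10.9.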

Additional observations from a re-analysis of the deposited data

Results flagged for a closer look

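In 98 groups of 4 or 5 libraries or embryos, 9 held a value far from the rest of its group. Chance alone flags about 1 in 20 such groups. Wildtype PA2 replicate 2 stood apart in summed red blood cell CPM (74780, the others 3977 to 5800) and in summed cardiac muscle CPM (64.94, the others 1217 to 1336). The labelled PA1 replicate 3 stood apart in cardiac muscle CPM (72.19, the others 29.14 to 29.19), and labelled PA2 replicate 3 in yolk sac endoderm CPM (442, the others 5.175 to 18.65). For PA2 minus PA1, wildtype embryo 4 stood apart for Tmem108 (-0.5439) and Usp12 (0.2591), and wildtype embryo 2 for Rabgap1l (-0.1549). Labelled embryo 4 stood apart for Arl5c (-2.691) and mt-Co1 (0.3637).

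Among the summed lists and the genes named by rule, with Hoxa2, Meis2, Chst8, Meox1 and mt-Co1 added, every wildtype embryo had PA2 and PA1 in one order and every labelled embryo in the opposite order in 4 results. PA2 was above PA1 in wildtype and below it in labelled embryos for the mitochondrial sum (difference of -0.406), mt-Co3 (-0.7097) and mt-Co2 (-0.6595). For Ski (0.8439) the order was the reverse. The rule that named mt-Co3, mt-Co2 and Ski already required embryos of the labels not to overlap, which favours such an order. Their orders are therefore a description. Non-overlap alone held for 1.9% of all genes in the positive and 1.01% in the negative direction. The single genes did not pass the adjusted threshold in limma, and for the sum the exact permutation p was 0.0286, or 0.286 adjusted over 10 lists.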

How the results depend on the processing

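The count of 0 genes for the difference of differences was the same under each alternative run except that with all 4 stages in the fit and the replicate block, which called 3. With no replicate block it was 0 with 590 genes at unadjusted p below 0.05 (699 with the block), and pairing changed no other call at the adjusted threshold. At unadjusted p below 0.05 with no block, the downstream and pouch groups had 0 genes and the crest group 1. All 4 stages in the fit raised the counts within PA2 to 2622 and within PA1 to 397. Leaving out single libraries gave 308 to 2311 genes within PA2 and 14 to 37 within PA1. In PA2 the libraries that moved it by over 1.5 times were wildtype replicates 2 (605), 4 (308) and 5 (587) and labelled replicate 3 (2311), and in PA1 each of the 9 did. The cause was not tested. Values near 0 changed sign: Meis2 was 0.009641 with no replicate block, 0.03443 with the GC correction, 0.05572 with embryo weights and 0.04145 without wildtype embryo 2 and labelled embryo 3, and -0.0662 to 0.0361 with single embryos left out. Chst8 was -0.03463 with no replicate block, -0.09525 with embryo weights, -0.1041 without both embryos, and -0.139 to 0.155 with single embryos left out. The mitochondrial genes stayed at 13 of 13 below 0 in each setting of scaling, block, tool and left-out embryo run on the lists, with 4 of 13 at unadjusted p below 0.05 with no replicate block and 6 to 9 otherwise. Medians of gene groups near 0 changed sign: that of the genes that divide the libraries was -0.00271 with no replicate block and -0.0276 without wildtype embryo 2, and without labelled embryo 3 those of the jaw group (0.177), downstream genes (0.0522), TALE cofactors (0.032), later-stage genes (0.0361) and pouch genes (0.0221) were above 0, with further sign changes under other left-out embryos. Within 1 arch no block can be fitted. The 95% intervals, a median of 0.44 to either side, limit what 4 embryos of each label can show.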

Other observations

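Labelled embryos were uneven in PA1 for Barx1, Dlx3, Gpr50 and Fbln5, genes picked after their values were seen. In PA1 of labelled embryos 1 to 4, Barx1 was at 5.96, 67.6, 5.78 and 54.4 CPM, where wildtype PA1 ran from 13.99 to 51.67 CPM. Dlx3 was at 13.7, 46.1, 15.7 and 44.3 CPM in the same libraries and at 22.04 to 40.54 CPM in wildtype PA1. Gpr50 was at 0.611, 7.02, 1.89 and 7.95 CPM, beside 6.29 to 8.71 CPM in wildtype PA1. Embryos 1 and 3 were thus below the wildtype range for these genes, which Fbln5 shares, and no such pair of values was compared by a test. Prrx1 and Sox9 were also below their wildtype PA1 range in both embryos, whereas Otx2, Alx1 and Gsc were not.

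Wildtype PA1 replicate 3, whose embryo had no PA2 library, held 73.05 summed CPM of yolk sac endoderm genes, and wildtype PA1 replicate 4 held 61.42, beside 2.456 to 7.211 in the other wildtype PA1 libraries.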
